A study of Komagataella phaffii with 18 samples.

Results

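The acetate response of the a-type strain of Komagataella phaffii was described from 6 of the 18 libraries in the series, chosen by their labels: 3 from acetate medium and 3 from YPD. Komagataella phaffii is a methylotrophic yeast. The a-type strain carries the genotype dic1-2Δ(a) in the CBS2612 background, in both media. Its acetate libraries came from cultures that had spent 24 h in acetate medium, and its YPD libraries from those cultures in exponential growth in YPD, a rich medium. The series also holds α-type, dic1-2Δ(α), and wild-type CBS2612 in the same media, with 3 libraries in each of these groups. The a mating type was represented by a single strain, and nothing states that the 3 libraries of a group came from separate cultures. The p-values rest only on differences among libraries of the same group, pooled over all 18 libraries of the series. Those differences may be technical. Acetate, elapsed time and growth phase changed together and cannot be told apart, and in whole-culture RNA fewer cells with a transcript and less of it per cell cannot be told apart.

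Acetate is a carbon source that cannot be fermented. Yeasts that use it as sole carbon source make acetyl-CoA from it, run the glyoxylate cycle to build larger molecules and make sugars by gluconeogenesis. In many yeasts the loss of rich medium is also the signal for mating. Cells of the a and α types each secrete a peptide pheromone that the receptor of the other type detects, and pheromone signalling then switches on further mating genes. Wild-type K. phaffii is homothallic, meaning that cells can switch mating type and that both types can arise in a culture, whereas a culture that keeps the a type holds no α partner. Acetate medium was used in this study to induce the expression of mating genes.

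The files and the reference gene table, which is for strain GS115, pair no name with any of the 5341 feature IDs, and 0 IDs matched that table. Features are therefore given by ID, with no gene name or role, and the genes of mating, acetate use or the dic1-2 deletion were not analysed here. The chromosome is the one written in the ID.

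Total estimated counts were 652341 to 673644 in the acetate a-type libraries and 282935 to 309362 in the YPD a-type libraries, so YPD values rest on fewer reads. A count of 0 allows up to 4.23 to 4.37 CPM (counts scaled to a common library size) in an acetate library and 8.17 to 10.2 CPM in a YPD library, by counting error alone. Features with at least 1 count numbered 5260, 5281 and 5255 in acetate and 5153, 5168 and 5096 in YPD, without overlap (exact two-sided permutation test, p = 0.1, the smallest that 3 against 3 libraries allow). With every library thinned to the same depth the numbers were 5092, 5156 and 5128 in acetate and 5106, 5115 and 5045 in YPD, and these overlapped (exact p = 0.4), a difference in means of 36.7 features.

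The acetate libraries resembled each other far more than the YPD libraries did. Pearson correlations of log2 CPM across features, which are not independent replicates, were 0.963 to 0.966 between acetate libraries and 0.849 to 0.899 between YPD libraries. The biological coefficient of variation was 13.6% in acetate and 39.3% in YPD. It was also lower in acetate than in YPD in α-type (11.4% and 31.9%) and in wild type (13.3% and 35.0%). Among 1872 features at 100 CPM or more over the 6 libraries, the median SD of log2 CPM was 0.17 in acetate and 0.46 in YPD, and the YPD SD was the larger for 87.8% of them. Fewer counts in the YPD libraries by themselves lower such correlations and raise such SDs, which were not compared at equal depth. YPD replicate 1 stood apart most often: it lay at least 2-fold above both other YPD libraries for 106 of the 1872 features and at least 2-fold below both for 134. The same counts were 10 and 42 for YPD replicate 2 and 72 and 44 for YPD replicate 3. In acetate they were 0 and 4 for replicate 1, 1 and 1 for replicate 2, and 0 and 0 for replicate 3.

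**Figure D1:**
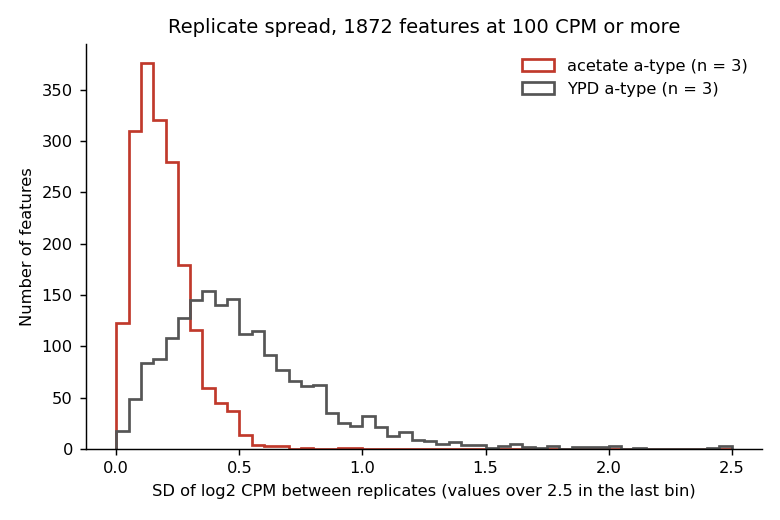
Histogram of the SD of log2 CPM between the 3 acetate libraries (red) and between the 3 YPD libraries (grey) of a-type, for 1872 features at 100 CPM or more; the axes give the SD and the number of features. The acetate values gather around a median of 0.17 and the YPD values around a median of 0.46.

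Acetate against YPD in a-type asks which transcripts differ between the media when cells of a single mating type are present. Of 4783 features with enough counts to test, 972 rose and 918 fell in acetate (edgeR quasi-likelihood test, Benjamini-Hochberg adjusted p under 0.05), which is 20.3% and 19.2% of those tested, or 39.5% together. Without YPD replicate 1, 908 rose and 900 fell of 5068 features that then passed the filter. The 3 acetate values lay outside the 3 YPD values for 47.9% of tested features, higher in 26.6% and lower in 21.4%. Of the called features, the libraries of the media did not overlap for 946 of those that rose and 793 of those that fell.

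Most called changes were moderate. The median log2 fold change was 1.60 among risers, with quartiles of 1.18 and 2.21, and -1.51 among fallers, with quartiles of -2.0 and -1.10. The median over all tested features was -0.0068. At least 4-fold changes made up 33.3% of the risers, 324 features, and 24.9% of the fallers, 229 features. At 16-fold or more, 43 features rose and 18 fell, so the upper tail was longer. When the test asked for a change beyond 2-fold, 386 features rose and 299 fell.

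Called features held similar shares of all counts when high. Those that rose took 44.6%, 43.3% and 43.0% of the counts in the acetate libraries and 13.7%, 13.2% and 14.9% in the YPD libraries. Features that fell took 14.7% to 15.1% of the counts in acetate and 44.2%, 43.7% and 41.3% in YPD. The uncalled 2893 features held 40.3% to 41.5% in acetate and 41.6% to 43.4% in YPD. These shares come from the values that made the calls and are given as a description. The 43 features with rises of 16-fold or more held 6.68% to 7.0% of acetate counts and 0.19% to 0.26% of YPD counts.

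**Figure D2:**
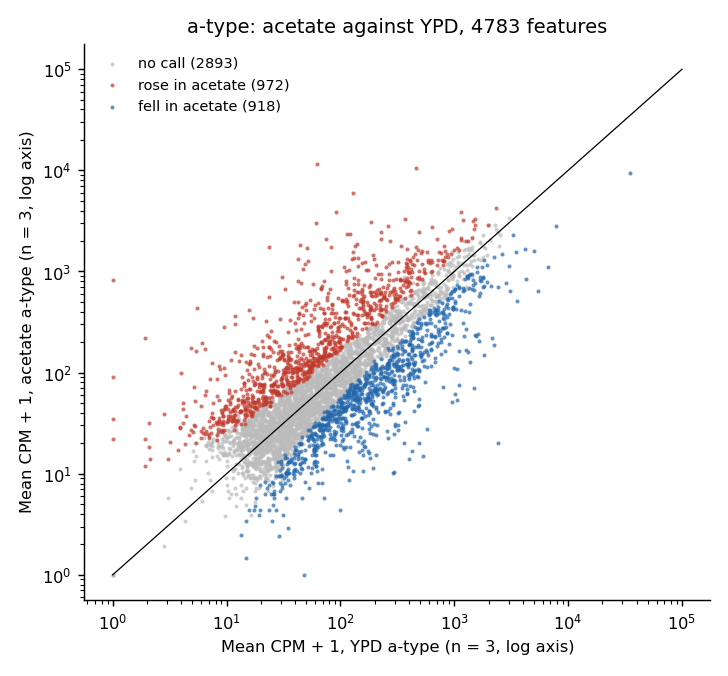
Mean CPM plus 1 in acetate (vertical, log axis) against mean CPM plus 1 in YPD (horizontal, log axis) for the 4783 tested features of a-type, each point a feature and each mean over 3 libraries. The 972 features that rose (red) lie above the line of equal values and the 918 that fell (blue) lie below it.

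Calls were more frequent among abundant features, where counts are larger. Of 4 equal classes by mean level, in the highest 28.8% rose and 27.4% fell, and in the lowest 14.0% rose and 9.79% fell, while the median size of the log2 fold change was 0.77 in the highest class and 0.84 in the lowest. The median estimated size was thus similar in both classes while the share of calls differed. Counting error enlarges such estimates at low counts, so this does not show that the true sizes were alike.

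The largest rise, ranked by a lower bound where a group had no counts, was that of PP7435_Chr4-0893 (coding length 1065). It had 681, 940 and 825 CPM in acetate and 0 counts in all 3 YPD libraries, at least 262-fold higher in acetate against a floor of 3 counts over the YPD group (adjusted p = 7.3e-11, edgeR). Acetate and YPD values were far apart in every library. In acetate the other strains had lower values, with 16.8 ± 9.98 CPM in α-type and 200 ± 28.9 CPM in wild type (SD, n = 3). The difference in response from YPD did not pass against α-type (adjusted p = 1.00) or wild type (adjusted p = 0.326, edgeR). The YPD groups held 0 counts in a-type, 1 in α-type and 1 in wild type. With so few YPD counts this test cannot show that the responses were alike, and the fitted difference depends on the prior count.

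PP7435_Chr1-0175 (coding length 2460) had 12992, 10960 and 10730 CPM in acetate and 62.9, 81.7 and 40.7 CPM in YPD (log2 fold change 7.53, SE 0.27, adjusted p = 6.21e-16, edgeR). No YPD library came near an acetate library, and the log2 fold change lay between 7.28 and 7.79 over the 16 alternatives tried. The response differed from that of α-type by -0.07 (95% interval -0.77 to 0.63) and from that of wild type by -0.56 (95% interval -1.29 to 0.17), neither past the threshold.

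At the other end, PP7435_Chr4-0656 (coding length 774) had 21.8, 18.3 and 17.3 CPM in acetate and 1020, 3120 and 3072 CPM in YPD (log2 fold change -6.95, SE 0.50, adjusted p = 1.5e-10, edgeR). YPD replicate 1 was the lowest of the YPD libraries, yet lay far above the acetate libraries. The fall was larger than in wild type, where the acetate mean was 161 ± 54.8 CPM and the YPD mean 2006 ± 966 CPM (difference in response -3.31, SE 0.60, adjusted p = 0.00068, edgeR). It did not differ past the threshold from the fall in α-type, where the acetate mean was 18.8 ± 9.16 CPM and the YPD mean 2619 ± 852 CPM (difference 0.14, 95% interval -1.23 to 1.51, adjusted p = 1.00, edgeR).

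The fall of PP7435_Chr3-0228 (coding length 513) followed a similar course, with 11.6, 19.8 and 10.1 CPM in acetate and 156, 820 and 631 CPM in YPD. Its log2 fold change was -5.25 (SE 0.65, adjusted p = 7.5e-07, edgeR), and YPD replicate 1 was again the lowest of its group without reaching the acetate values.

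Few features were near silent in one medium and abundant in the other. A level under 10 CPM in each YPD library with at least 100 CPM in each acetate library was found for 5 features, and the reverse for 0. Besides PP7435_Chr4-0893 these were PP7435_Chr2-0632, PP7435_Chr2-0218, PP7435_Chr2-1115 and PP7435_Chr3-0663, named after their values were seen. PP7435_Chr2-0632 had 230, 185 and 249 CPM in acetate and 0, 2.72 and 0 CPM in YPD. PP7435_Chr2-0218 had 141, 207 and 173 CPM in acetate and 3.31, 8.17 and 0 CPM in YPD. PP7435_Chr2-1115 had 176, 210 and 200 CPM in acetate and 9.93, 5.45 and 0 CPM in YPD. The lowest acetate value of each of these lay above 100 CPM, while its YPD values were at or below the level that 3 counts represent in those libraries. PP7435_Chr3-0663 had 132, 212 and 141 CPM in acetate and 9.93, 0 and 3.39 CPM in YPD.

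Levels per length are given in TPM, which divides by length, as the deposited tables list them. PP7435_Chr2-2452 (coding length 486) had the highest TPM in both media, at 40419, 31931 and 33749 TPM in acetate and 146790, 95793 and 77372 TPM in YPD. The media did not overlap, and YPD replicate 1 was the highest. In CPM its log2 fold change was -1.87 (SE 0.28, adjusted p = 9.08e-06, edgeR), so the feature with the highest TPM fell and kept the highest TPM. This rank holds in TPM only. In CPM, which does not correct for length, PP7435_Chr1-0175 had the higher acetate a-type mean, 11560.5 against 9495.

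Next in acetate was PP7435_Chr2-1002 (coding length 231), with 9840, 10223 and 8013 TPM in acetate and 4865, 2375 and 3997 TPM in YPD, higher in every acetate library (log2 fold change in CPM 1.05, SE 0.27, adjusted p = 0.0036, edgeR). PP7435_Chr1-2269 (coding length 384) had the third highest TPM of each medium, with 8832, 7794 and 8275 TPM in acetate and 10989, 6146 and 9797 TPM in YPD. Its groups overlapped, and its log2 fold change in CPM was -0.41 (95% interval -1.28 to 0.45, adjusted p = 0.458, edgeR). PP7435_Chr3-0845 (coding length 180) was second in YPD, with 2948, 2550 and 2589 TPM in acetate and 17307, 22556 and 15381 TPM in YPD (log2 fold change in CPM -2.99, SE 0.24, adjusted p = 1.1e-09, edgeR).

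The most abundant features held a larger share of TPM in YPD. The 100 most abundant features of each library held 29.7 ± 1.38% of TPM in acetate and 38.7 ± 3.02% in YPD (SD, n = 3 each), without overlap (exact two-sided permutation p = 0.1, the smallest possible). In counts, which do not correct for length, the shares were 24.7 ± 0.79% in acetate and 26.7 ± 0.97% in YPD, which overlapped (exact p = 0.2). The 10 most abundant features held 6.27 ± 0.42% of counts in acetate and 8.88 ± 1.21% in YPD (exact p = 0.1). The lower share of the single feature PP7435_Chr2-2452 in acetate was a large part of the TPM difference and exceeded the differences in counts. Shares without it were not computed. The means of PP7435_Chr2-2452 were 106652 TPM and 34656 CPM in YPD, and 35366 TPM and 9495 CPM in acetate. A general concentration of the YPD RNA is therefore not shown.

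A steady level could be shown for a minority of features. The 95% interval of the log2 fold change lay within -1 to 1 for 845 features, 17.7% of those tested, of which 17 were also called. The most abundant of these was PP7435_Chr2-0501 (coding length 846), with 3758, 3284 and 3020 CPM in acetate and 1503, 3757 and 3757 CPM in YPD (log2 fold change 0.16, 95% interval -0.39 to 0.70, adjusted p = 0.666, edgeR). YPD replicate 1 alone was below the rest. PP7435_Chr1-0408 (coding length 2919) had 2300, 2204 and 2348 CPM in acetate and 2450, 3428 and 3954 CPM in YPD. Its log2 fold change of -0.52 (95% interval -0.95 to -0.09) passed the threshold narrowly (adjusted p = 0.0487, edgeR), and 9 of 16 alternatives left it above 0.05, among them leaving out any 1 of the 6 libraries other than YPD replicate 1.

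**Figure D3:**
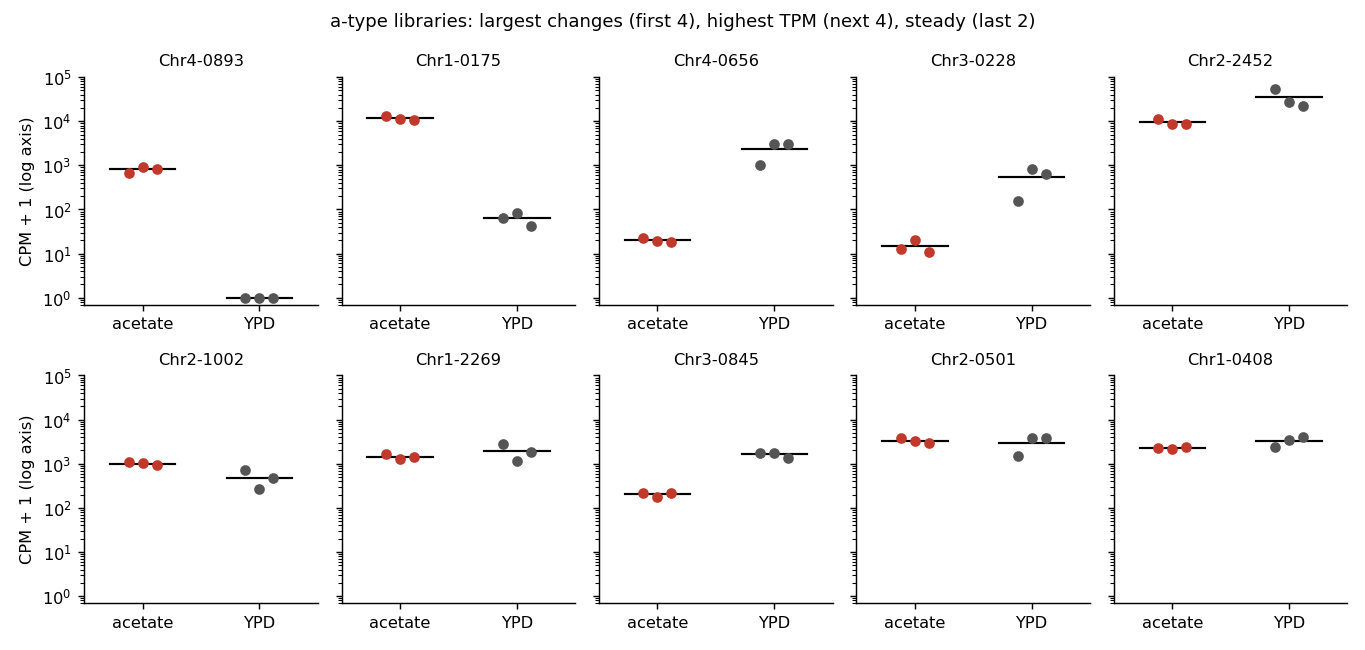
CPM plus 1 (log axis) of 10 features in the 3 acetate (red, left) and 3 YPD (grey, right) a-type libraries; each point is a library and each line a group mean. The first 4 panels are the largest rises and falls, the next 4 the features with the highest TPM and the last 2 the most abundant steady features; acetate and YPD libraries are farthest apart for Chr4-0893, with 0 counts in YPD.

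The a-type response was next set beside those of the other strains, whose libraries it does not share. Features that changed at least 4-fold in α-type, in a fit of the 6 α-type libraries alone, numbered 330 rising and 250 falling. Over all tested features 22.3% rose and 19.6% fell in α-type. In a-type 301 of the 330 rose and 0 fell, against 20.3% rising among all tested features, and 234 of the 250 fell and 0 rose, against 19.2% falling among all. With the 6 a-type libraries fitted alone, a choice made after the data were seen, 286 of 314 tested members rose and 229 of 240 fell. In that fit 801 of all 4330 tested features rose and 835 fell. The median log2 fold change of the rising list was 2.43 (a-type) and 2.87 (α-type), and that of the falling list -2.26 (a-type) and -2.43 (α-type). The strain in which a list is chosen has the larger values in part because of that choice.

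Lists chosen in the same way came from wild type, where 25.6% of tested features rose and 23.3% fell. Of 462 features that rose at least 4-fold in wild type, 334 rose, 10 fell and 118 were not called in a-type, with median log2 fold changes of 1.83 (a-type) and 3.11 (wild type). Of 369 that fell, 307 fell and 1 rose in a-type, with medians of -1.81 in a-type and -2.55 in wild type. In the fit over all libraries, only PP7435_Chr4-0072 rose in a-type and fell at least 4-fold in wild type. Its counts are uncertain, as given below, and so are those of PP7435_Chr4-0003, which fell in a-type and rose in wild type. The median log2 CPM of the wild-type rising list was 7.12, 7.05 and 7.06 in the acetate a-type libraries and 5.28, 5.31 and 5.37 in the YPD a-type libraries, so these libraries were close together within each medium.

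**Figure D4:**
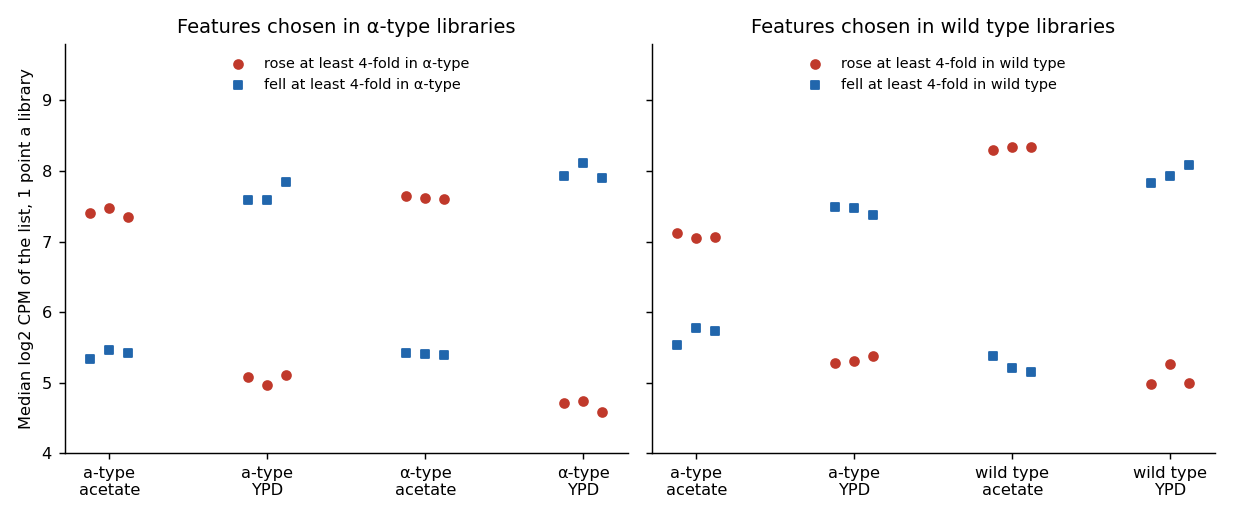
Median log2 CPM of features that rose (red circles) or fell (blue squares) at least 4-fold in α-type (left panel) or in wild type (right panel), 1 point a library, in a-type and in the strain where the list was chosen. In a-type the rising lists lie higher in acetate than in YPD in every library and the falling lists lie lower.

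Over all called features, 802 rose and 713 fell in both a-type and α-type, which is 82.5% and 77.7% of the a-type calls and 75.2% and 76.0% of the α-type calls. No called feature moved in opposite directions in these strains. With wild type, 747 rose and 682 fell in both, 76.9% and 74.3% of the a-type calls and 61.0% and 61.2% of the wild-type calls, while 2 rose in a-type and fell in wild type and 21 did the reverse, counts that include PP7435_Chr4-0072 and PP7435_Chr4-0003 with their divided reads.

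A test of the difference in response between a-type and α-type found 7 features, 0.146% of those tested, 2 with a higher (0.0418%) and 5 with a lower (0.105%) response in a-type. DESeq2 found 14. All 7 are given here; 3 of the lower ones, PP7435_Chr3-1699, PP7435_Chr3-0319 and PP7435_Chr3-1710, were named after their values were seen. The 5 lower ones rose in α-type and in wild type.

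PP7435_Chr2-0522 (coding length 1197) had 40.7, 40.9 and 53.2 CPM in acetate a-type and 39.7, 38.1 and 23.7 CPM in YPD a-type (log2 fold change 0.40, 95% interval -0.19 to 0.98, adjusted p = 0.282, edgeR). In acetate the means of the other strains were 12522 ± 835 CPM in α-type and 13279 ± 2274 CPM in wild type. PP7435_Chr2-0521 (coding length 474), the ID numbered just before it, had 94.6, 59.3 and 71.9 CPM in acetate a-type and 136, 46.3 and 54.3 CPM in YPD a-type (log2 fold change -0.05, 95% interval -0.76 to 0.66). Both features thus stayed near their YPD level in a-type, with overlapping libraries for PP7435_Chr2-0521 and separate ones for PP7435_Chr2-0522. The responses were lower than in α-type by -9.21 (SE 0.45, adjusted p = 4.86e-13) and -6.003 (SE 0.49, adjusted p = 2.13e-08, both edgeR) on the log2 scale. Without YPD replicate 1 of a-type the difference for PP7435_Chr2-0521 was -5.36.

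PP7435_Chr3-0319 (coding length 639) had similar levels in both media, with 116, 138 and 105 CPM in acetate a-type and 82.8, 117 and 166 CPM in YPD a-type (log2 fold change -0.02, 95% interval -0.67 to 0.62), against an acetate mean of 1707 ± 35.0 CPM in α-type. The difference from the α-type response was -3.59 (SE 0.44, adjusted p = 3.21e-05, edgeR). Another feature of this kind, PP7435_Chr3-1710 (coding length 312), had 75.7, 96.0 and 104 CPM in acetate a-type and 46.3, 32.7 and 78.0 CPM in YPD a-type, a small rise with overlapping libraries (log2 fold change 0.83, SE 0.29, adjusted p = 0.0283, edgeR). In acetate α-type it had 969 ± 99.4 CPM, and the difference in response was -3.29 (SE 0.42, adjusted p = 3.98e-05, edgeR).

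PP7435_Chr3-1699 (coding length 1128) did rise in a-type, with 106, 124 and 82.0 CPM in acetate and 26.5, 5.45 and 10.2 CPM in YPD (log2 fold change 2.91, SE 0.44, adjusted p = 1.01e-05, edgeR). The rise was smaller than in α-type, which had 2664 ± 202 CPM in acetate (difference -3.94, SE 0.71, adjusted p = 0.0075, edgeR). Without YPD replicate 1 of a-type, the highest of the 3, the difference was -3.12 and did not pass (adjusted p = 0.717, edgeR). It also did not pass with limma voom with weights per group (adjusted p = 0.114) or with libraries thinned to the same depth (adjusted p = 0.105).

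The remaining features responded more in a-type than in α-type. PP7435_Chr3-2788 (coding length 3321) had 979, 896 and 733 CPM in acetate a-type and 119, 106 and 163 CPM in YPD a-type (2.75 as log2 fold change, with SE 0.25 and an adjusted p of 6.02e-09 from edgeR). In α-type it had 170 ± 7.05 CPM in acetate and 173 ± 52.0 CPM in YPD, and the difference in response was 2.78 (SE 0.35, adjusted p = 3.61e-05, edgeR). It also differed from the wild-type response, by 1.17 (SE 0.34, adjusted p = 0.0375, edgeR). PP7435_Chr3-0313 (coding length 1839) had 105, 130 and 89.2 CPM in acetate a-type and 9.93, 19.1 and 20.3 CPM in YPD a-type, while α-type had 12.5 ± 2.53 CPM in acetate and 20.8 ± 7.25 CPM in YPD. The difference in response was 3.38 (SE 0.66, adjusted p = 0.0228, edgeR), and it lost the threshold under 9 of 21 alternatives, with adjusted p up to 0.756. These were limma voom, thinning, the test beyond 2-fold, and leaving out acetate replicate 2 or YPD replicate 1 of a-type, acetate replicate 1 or 3 of α-type, or YPD replicate 2 or 3 of α-type. PP7435_Chr3-0313 also rose in wild type (log2 fold change 2.18, adjusted p = 0.000576, edgeR). Its a-type response did not differ past the threshold from that of wild type (0.51, adjusted p = 0.787, edgeR).

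**Figure D5:**
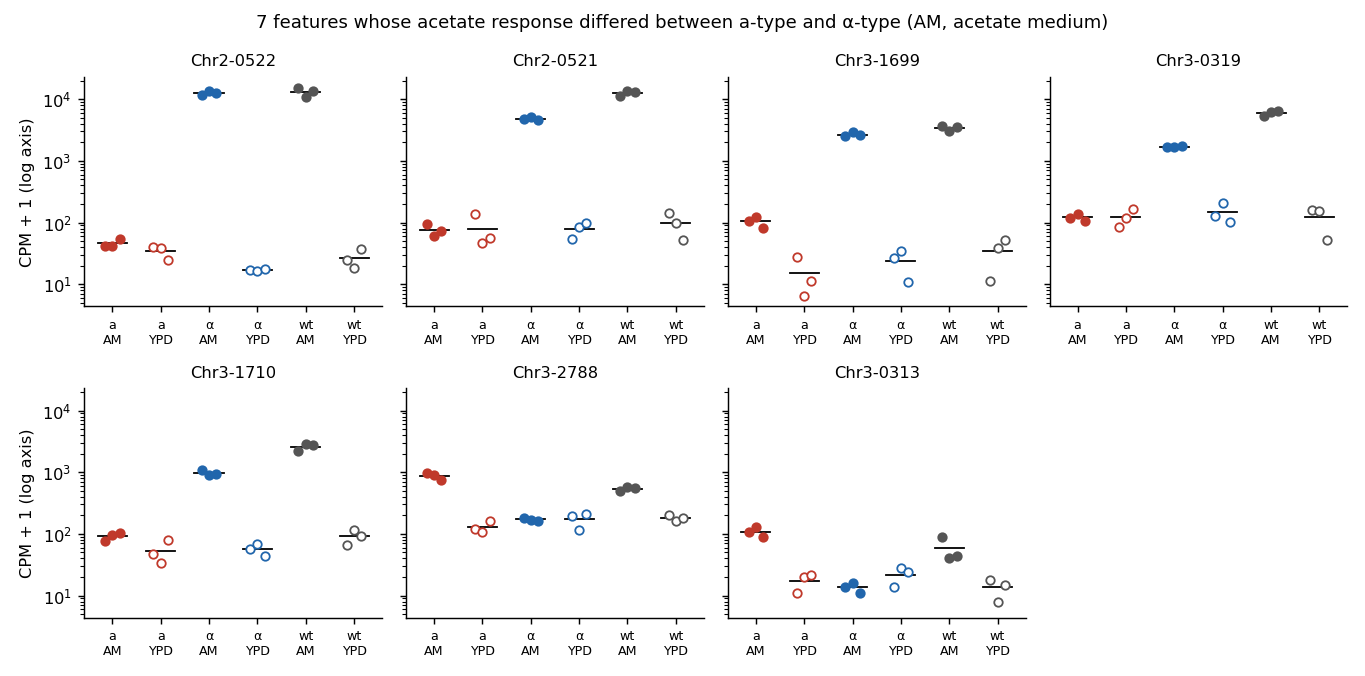
CPM plus 1 (log axis) in acetate (filled) and YPD (open) of the 7 features whose response differed between a-type (red) and α-type (blue), with wild type (grey) beside them; each point is a library and each line a group mean. For Chr2-0522, Chr2-0521 and Chr3-0319, the acetate a-type libraries lie near the YPD level while those of α-type and wild type lie at 1686 CPM or more.

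Against wild type the response of 330 features differed, 6.9% of those tested, with the difference positive for 86 (1.8%) and negative for 244 (5.1%). The positive share was 26.1%, and 39.6% with upper-quartile scaling, which moved the median difference of all features by over 0.1 (to 0.17, against 0.01 with the main scaling). Among all tested features 20.3% rose and 19.2% fell in a-type, and 25.6% rose and 23.3% fell in wild type. Of the 244 with a lower response in a-type, 215 rose in wild type. In a-type 70 of the 244 rose, 49 fell (near the share over all tested features) and 125 were not called. Their median log2 fold change was 0.12 (a-type), 0.50 (α-type) and 2.59 (wild type). Among the 86 with a higher response, 62 had fallen in wild type. In a-type 25 of them rose, 29 fell and 32 were not called, with medians of -0.18 (a-type), -0.73 (α-type) and -2.15 (wild type). These sets were chosen by the difference itself, so the medians are a description. The sign of the difference reflects the wild-type response as well as that of a-type.

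Opposite calls were few. In a-type 21 features fell that rose in wild type, 2.29% of the a-type fallers, and all 21 were among the 244 with a lower response. One of the 21, PP7435_Chr4-0003, is uncertain: it had 0 counts in acetate a-type and held divided reads, and summed with PP7435_Chr4-0072 it rose in a-type. The other 20 had log2 fold changes of -4.40 to -0.68 in a-type and 0.67 to 5.14 in wild type. In α-type 14 of the 20 fell, 0 rose and 6 were not called, against 19.6% falling and 22.3% rising among all tested features. PP7435_Chr1-0699 and PP7435_Chr3-0555, named after their values were seen, were clear cases. Both also fell in α-type, with log2 fold changes of -3.75 (adjusted p = 5.22e-10) and -4.65 (adjusted p = 5.84e-11, both edgeR). PP7435_Chr1-0699 (coding length 1611) had 23.3, 26.8 and 30.2 CPM in acetate a-type and 795, 365 and 560 CPM in YPD a-type, against 2501, 3599 and 3116 CPM in acetate wild type and 665, 433 and 738 CPM in YPD wild type. The YPD values of the strains overlapped, and those of acetate lay on opposite sides of them (difference in response -6.73, SE 0.40, adjusted p = 2.12e-11, edgeR). PP7435_Chr3-0555 (coding length 1185) had 55.3, 63.5 and 38.8 CPM in acetate a-type and 967, 692 and 1516 CPM in YPD a-type, and means of 5142 ± 781 CPM in acetate wild type and 1010 ± 139 CPM in YPD wild type (difference -6.67, SE 0.42, adjusted p = 4.77e-11, edgeR).

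The largest differences from wild type by the ranking rule were those of PP7435_Chr4-0072 and PP7435_Chr4-0003, of coding lengths 3135 and 3138, and of PP7435_Chr2-0522 and PP7435_Chr4-0578. For PP7435_Chr2-0522 the difference was -8.63 (SE 0.44, adjusted p = 1.11e-12, edgeR). PP7435_Chr4-0072 and PP7435_Chr4-0003 are uncertain, since both held fractional counts, which arise when kallisto divides reads between similar sequences. PP7435_Chr4-0072 had 601, 466 and 498 CPM in acetate a-type and 159, 84.5 and 61.0 CPM in YPD a-type, and PP7435_Chr4-0003 had 0 counts in acetate a-type and 0, 81.7 and 57.7 CPM in YPD a-type. With their counts summed, a choice made after the data were seen, the pair rose in a-type by 1.81 (SE 0.24, adjusted p = 2.01e-06, edgeR), and its response did not differ past the threshold from wild type (0.10, adjusted p = 0.933) or α-type (0.09, adjusted p = 1.00). PP7435_Chr4-0578 (coding length 312) had 21.8, 15.5 and 7.19 CPM in acetate a-type and 0, 21.8 and 13.6 CPM in YPD a-type, which overlapped. Its difference of 4.08 (SE 1.09, adjusted p = 0.0209, edgeR) stood beside a lower acetate than YPD mean in wild type, with 3.49 ± 1.49 CPM in acetate and 53.5 ± 38.9 CPM in YPD, and it lost the threshold without acetate replicate 1 of a-type (3.68, adjusted p = 0.0706), without acetate replicate 2 of wild type (3.80, adjusted p = 0.0641) or without YPD replicate 1 of wild type (3.50, adjusted p = 0.0789). It was also lost with limma voom (adjusted p = 0.0854), with thinning (adjusted p = 0.0937) and in the test beyond 2-fold (adjusted p = 0.0828), and it was 4.94 without YPD replicate 2 of a-type.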

How the data were processed

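Polyadenylated RNA was sequenced. Per the file headers, the authors deposited a kallisto table for each library with estimated counts and TPM (per effective length) for 5341 features. Tools listed in the submitters' processing notes, with no roles, are kallisto, TopHat2, SAMtools, DESeq2, Trim Galore 0.4.2 and FastQC 0.11.2. No source used here gives a genome build. The deposited normalized tables were not used here: the table for a-type writes decimals with commas, and the others are of other comparisons. Coding lengths are the deposited lengths, which were multiples of 3 for 99.9% of features.

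Rounded estimated counts entered edgeR 4.0.16 (R 4.3.3): filterByExpr, TMM scaling, 1 mean per group over all 18 libraries, quasi-likelihood tests and Benjamini-Hochberg adjustment over 4783 features at 0.05. CPM uses TMM-scaled library sizes, and log2 CPM a prior count of 2. The fit shares 1 spread over groups whose spreads differ; limma 3.58.1 voom with weights per group, DESeq2 1.42.0, other scalings, no filter, thinning to the smallest library, leaving out libraries and a replicate block were alternatives. Each edgeR SE is the size of the log2 fold change divided by the square root of the F statistic of its test. Intervals are 95% and built from that SE, and floors are 3 counts. The tests were checked on simulated counts. No libraries of the same a-type group were alike within sampling noise (chi-square per degree of freedom 2.25 to 13.1).

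The strain, the features and the lists were chosen with earlier results of these data known. Named features are the 2 largest rises and falls past the threshold whose libraries do not overlap and whose higher group averages 10 CPM or more, the 2 most positive and negative differences in response per strain, the 3 highest by TPM per medium and the 2 most abundant steady ones. Other IDs are said to be named after their values were seen. Gene lists of acetate use, mating, meiosis, glycolysis, ribosomal proteins, peroxisomes, stress and methanol use had 0 members that could be identified and were not run.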

Additional observations from a re-analysis of the deposited data

Results flagged for a closer look

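The following results are listed because the a-type response to acetate differed from that of another strain by a test of the difference itself (edgeR). Their causes were not tested. Differences from wild type passed for 330 features and differences from α-type for 7. For PP7435_Chr4-0072 and PP7435_Chr4-0003 the fitted log2 differences from wild type, 9.73 and -10.28, are no measured sizes or bounds: PP7435_Chr4-0072 had 0 counts in acetate wild type and PP7435_Chr4-0003 had 0 in acetate a-type, so the fits depend on the prior count. Their summed counts gave 0.10 (adjusted p = 0.933, edgeR). From wild type the log2 difference in response was 4.08 for PP7435_Chr4-0578 and -8.63 for PP7435_Chr2-0522. From α-type it was 3.38 for PP7435_Chr3-0313, 2.78 for PP7435_Chr3-2788, -9.21 for PP7435_Chr2-0522, -6.003 for PP7435_Chr2-0521, -3.94 for PP7435_Chr3-1699, -3.59 for PP7435_Chr3-0319 and -3.29 for PP7435_Chr3-1710. Groups of 3 libraries are too small for a test of single outlying libraries.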

How the results depend on the processing

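Requiring a change beyond 2-fold left 685 features in a-type (386 rising, 299 falling), 110 differences from wild type (10 positive, 100 negative) and 1 positive difference from α-type. Upper-quartile scaling gave 130 positive differences from wild type in place of 86. DESeq2 gave 14 differences from α-type, 11 of them negative, and limma voom with weights per group and thinning each gave 1 positive one. Leaving out single libraries gave 1572 to 1808 calls in a-type (791 to 908 rising, 779 to 900 falling), 235 to 369 differences from wild type (49 to 116 positive, 184 to 253 negative) and 6 to 9 from α-type (1 to 2 positive, 5 to 7 negative). The filter on counts was run again each time. These a-type calls therefore came from 4433 to 5080 tested features, against 4783 in the main fit. The positive differences from wild type were 51 without acetate a-type replicate 2, and 49 and 57 without acetate wild-type replicates 2 and 3. The 1890 calls in a-type became 1636 with its 6 libraries alone and 1591 with limma voom, of which 1597 and 1567 were among the 1890. The difference in the share of the 100 most abundant features was -2.51 to -1.66 percentage points over left-out libraries, and that in detected features 105 to 141. Of 390 values of named features under alternatives, 361 kept their side of the threshold, 29 lost the threshold and 0 reversed past it. Not all of the 361 kept their sign. The uncalled log2 fold change of PP7435_Chr2-0501 in a-type went from 0.16 to -0.19 without YPD replicate 1. The causes of these shifts were not tested.

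Replicate numbers were not taken to pair the libraries, since no correlation passed 0.1: the deviations of same-numbered acetate and YPD a-type libraries correlated at 0.06, 0.04 and -0.01, acetate replicates 1 and 2 correlated best with their own number and replicate 3 with another. This does not show that the cultures were unpaired. With a replicate block, 1657 features were called in a-type (891 rising, 766 falling), 227 differences from wild type passed (54 positive, 173 negative) and 7 from α-type.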

Other observations

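Chromosomes, coding length and ID order were also read. Of tested features with IDs of chromosome 1, 23.4% rose and 16.5% fell in acetate a-type against YPD a-type; on chromosome 2 these shares were 17.6% and 19.7%, on chromosome 3 20.7% and 20.1%, and on chromosome 4 18.4% and 21.6%. None of the 3 tested mitochondrial features was called. Of 4 equal classes by coding length, in the shortest, 126 to 798 bases, 14.4% rose and 25.2% fell, and the median log2 fold change was -0.26. In the longest class, from 1854 bases, 22.4% rose and 15.6% fell, and the median was 0.11. The median coding length was 1389 among risers, 1110 among fallers and 1242 over all tested features.

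Features whose ID number directly followed that of a riser rose in 26.4% of 770 cases, against 20.3% of all tested features, and those following a faller fell in 25.5% of 709 cases, against 19.2%. The files give no coordinates, so that consecutive numbers are neighbours on the chromosome is not shown by them. These shares are descriptions without a test.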
